A study of Mus musculus with 16 samples.

Results

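The nuclear genes for the subunits of oxidative phosphorylation were followed in mouse heart. They were the genes whose symbol begins with Ndufa, Ndufb, Ndufc, Ndufs or Ndufv and a digit, is Sdha, Sdhb, Sdhc or Sdhd, or begins with Uqcr, with Cox and a digit from 4 to 8, or with Atp5. This gave 96 names, of which 9 with the pseudogene ending -ps were left out, so 87 of the 30884 genes in the tables were members. By name 40 belonged to complex I, 4 to complex II, 8 to complex III, 18 to complex IV and 17 to complex V. Of the 87, 84 had enough counts to be tested. GENCODE M21 types 83 as protein coding and Ndufa11b, Ndufb4c, Ndufs6b and Cox6c2 as processed pseudogenes.

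Oxidative phosphorylation makes most of the ATP of heart muscle. Complexes I and II pass electrons from NADH and succinate to ubiquinone, complex III passes them on to cytochrome c, complex IV passes them to oxygen, and the proton gradient built on the way drives complex V, the ATP synthase. The complexes other than II mix subunits from nuclear genes with subunits from mitochondrial DNA, and several complex IV subunits have a heart and muscle isoform beside one found in most tissues.

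RNA came from hearts of male wild type mice of the C57BL/6 strain, aged 8 weeks, with 4 libraries in each of 4 groups. Mice of DOX_Vehicle and DOX_NMN received a single intraperitoneal dose of doxorubicin at 15 mg/kg, an anthracycline cancer drug that can injure the heart, and mice of Sham_Vehicle and Sham_NMN received saline in its place. Mice of Sham_NMN and DOX_NMN received nicotinamide mononucleotide (NMN), from which cells make NAD, by intraperitoneal injection at 500 mg/kg, 30 min earlier, and the vehicle groups received saline then. Hearts were harvested at day 5. Below, sham stands for saline in place of doxorubicin and vehicle for saline in place of NMN. The labels number the replicates without saying what they are, so the p-values rest on a spread between libraries that may be technical.

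Libraries held 13.9 M to 16.4 M counts. A split that crosses the groups, known from earlier results and not from the labels, was drawn at the largest gap in Scand1, Cox11 and Mrps34. Replicates 3 and 4 of sham vehicle and of doxorubicin vehicle, and replicate 4 of sham NMN and of doxorubicin NMN, formed its smaller part, called the second part, and the other 10 libraries the first part. Over the tested members, the median difference of the second from the first part was 0.198 on the log2 scale, above 0 in 74 of 84. The 8 cardiomyocyte markers together read 56053 to 63943 CPM (counts scaled to the size of the library) in sham vehicle and 17457 to 27054 in doxorubicin vehicle, none being at 0 in a whole group, and 6 fell and 1 rose. In doxorubicin NMN they read 31865 to 56574 CPM. The 5 neutrophil markers summed to 1.37 to 5.40 CPM in sham vehicle and 31.0 to 86.3 CPM in doxorubicin vehicle, and 5 of 5 rose. The 4 erythroid markers summed to 305 to 520 CPM in sham vehicle, 0.378 to 2.42 in doxorubicin vehicle and 0.377 to 291 in doxorubicin NMN. Of the 3 tested, 3 fell with doxorubicin and 3 were higher with NMN than without it among doxorubicin hearts. The median sum in doxorubicin NMN was only 2.77 CPM, so a single library, at 291 CPM, carried most of it. The 5 atrial markers summed to 11.7 to 219 CPM in sham vehicle, 9.43 to 18.3 in doxorubicin vehicle and 20.8 to 261 in doxorubicin NMN, and of the 4 tested 3 fell and 3 were higher in the same comparisons. Fewer cells of a type and less RNA per cell cannot be told apart in whole hearts, and the part of these markers in the results below was not tested.

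Sham vehicle libraries gave 3.44% ± 0.188 of their counts to the members and doxorubicin vehicle libraries 3.07% ± 0.203 (SD, n = 4 each). With NMN the share was 3.25% ± 0.0652 in sham hearts and 3.36% ± 0.273 in doxorubicin hearts, and all pairs of groups overlapped in this share of all counts. Mitochondrially encoded transcripts took 26.4% ± 1.06 of counts in sham vehicle and 22.9% ± 0.931 in doxorubicin vehicle. They took 26.0% in both NMN groups (SD 0.885 in sham and 0.984 in doxorubicin). Of the counts left without these transcripts, the members took 4.38% to 5.00% in sham vehicle and 4.35% to 4.43% in sham NMN. In doxorubicin vehicle they took 3.71% to 4.21%, below both sham groups, and in doxorubicin NMN 4.08% to 5.10%. Differences in these shares were not tested.

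Levels can be compared between genes only per length, as FPKM (counts scaled to gene length and library size). In sham vehicle the highest members of complexes II to V were, in that order, Sdha at 424 ± 12.0 FPKM, Uqcrfs1 at 476 ± 91.3, Cox6a2 at 1481 ± 87.9 and Atp5b at 1213 ± 62.1. Cox6a2, the heart and muscle isoform of a regulatory subunit of cytochrome c oxidase, ranked 20 among all genes in FPKM. Median levels in FPKM were 96.9 in complex I, 329 in complex II, 307 in complex III, 156 in complex IV and 126 in complex V. The medians cover every matched name, pseudogenes and isoforms of low level too. The lowest name read 0.0394 FPKM in complex I, 0.117 in complex IV and 3.20 in complex V. In complexes II and III the lowest read 125 and 150, so the medians do not rank the complexes on equal terms. Some core subunits read low, such as Ndufs3 at 9.21 ± 4.44 FPKM, whose gene overlaps Kbtbd4, and Atp5o, the stalk subunit OSCP, at 3.20 ± 0.264 FPKM, which shares 35.6% of its exonic bases with exons of other genes. Ndufb2 read 0.733 ± 0.147 FPKM and overlaps Braf. The library kit does not keep strand, so reads over exonic bases shared with another gene cannot be told apart by strand. Only 4.04% of the exonic bases of Ndufs3 and 5.37% of those of Ndufb2 lie in exons of another gene. Why these genes read low was not tested.

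In doxorubicin vehicle against sham vehicle, 32 of 84 tested members fell, 3 rose and 49 did not pass (edgeR quasi-likelihood test, adjusted p under 0.05 over 14716 genes). Over all genes tested, 23.9% fell and 24.8% rose, 48.7% in all, while 38.1% of the members fell and 3.57% rose. The median log2 fold was -0.22 over the members and 0.01 over all genes tested. Falls were moderate: 13 of the 32 exceeded 1.5-fold and 2, in Ndufs8 and Cox7a1, exceeded 2-fold. In 29 of the 32 the 4 libraries of doxorubicin vehicle all lay below the 4 of sham vehicle. The 32 were called from these same libraries, which favours such separation, and its share over all genes was not counted, so it adds no support. The members that fell numbered 18 of 39 in complex I, 2 of 4 in complex II, 3 of 8 in complex III, 2 of 16 in complex IV and 7 of 17 in complex V. Median log2 folds were -0.29, -0.31, -0.28, -0.08 and -0.22 in the same order, and differences between complexes were not tested.

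**Figure D1:**
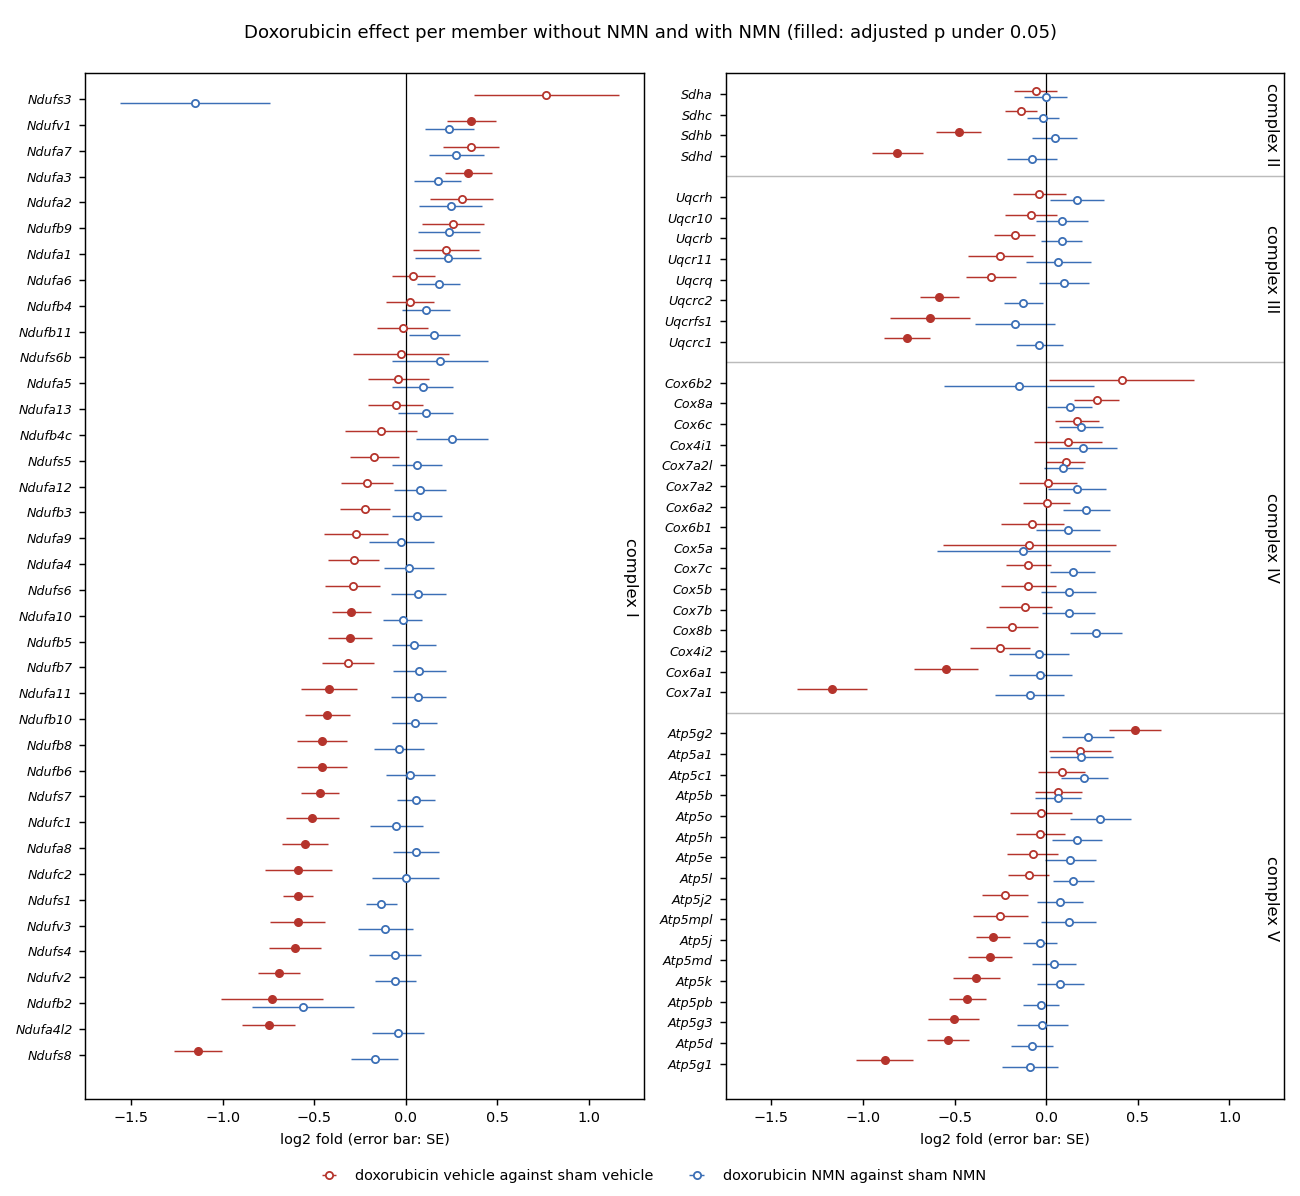
Log2 fold of 83 tested members on the horizontal axis (point, with SE as the bar), in red for doxorubicin vehicle against sham vehicle and in blue for doxorubicin NMN against sham NMN, with members on the vertical axis sorted by the red fold within complexes I to V. Filled points passed at an adjusted p under 0.05: 31 red points lie below 0 and 3 above, and no blue point is filled. Of the 84 tested members 1 is not drawn.

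Among the 7 core subunits of complex I, which include its cofactor carriers, 5 fell, 1 rose and Ndufs3 did not pass. The largest fall was in Ndufs8, an iron-sulfur protein near the ubiquinone site (ENSMUSG00000059734, chr19:3908863-3912774, minus strand, GRCm38). Its 4 libraries read 173, 169, 243 and 225 CPM in sham vehicle and 89.7, 93.8, 90.1 and 95.5 in doxorubicin vehicle. All doxorubicin vehicle libraries lay below all of sham vehicle, and their spread was narrow (log2 fold -1.13, SE 0.13, adjusted p = 8.93e-06). Its first-part means were 171 CPM in sham vehicle and 91.8 in doxorubicin vehicle, and its second-part means 234 and 92.8, so the drop was seen within each part.

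Ndufs1, the largest iron-sulfur subunit of the NADH-oxidising module, read 609, 644, 692 and 625 CPM in sham vehicle and 400.5, 415, 441 and 454 in doxorubicin vehicle, with no overlap (log2 fold -0.59, SE 0.08, adjusted p = 4.8e-05). Ndufv2, an iron-sulfur subunit of the same module, had means of 424 ± 57.4 and 263 ± 18.1 CPM (log2 fold -0.69, SE 0.11, adjusted p = 0.000138).

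Ndufv1, which holds the flavin that accepts electrons from NADH and sits beside Ndufs1 and Ndufv2 in the complex, moved the other way. Its libraries read 592, 607, 716 and 638 CPM in sham vehicle and 743, 623, 949 and 957 in doxorubicin vehicle, where replicate 2 lay within the sham range (log2 fold 0.36, SE 0.14, adjusted p = 0.038). Split by part, the sham vehicle and doxorubicin vehicle means were 599 and 683 CPM for its first-part libraries, then 677 and 953 for its second-part libraries, and the first part alone did not pass (log2 fold 0.19, adjusted p = 0.226). The call was also lost without replicates 1, 2 or 4 of sham vehicle or 3 or 4 of doxorubicin vehicle, with adjusted p from 0.0712 to 0.127. Upper-quartile scaling (0.0811), no filter (0.0696) and a fit of only the 2 groups (0.081) lost it too. Ndufv1 and Ndufs8, which moved in opposite directions, lie 94.6 kb apart on chromosome 19.

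Ndufs3, another core subunit, differed widely between replicates, at 12.0, 19.7, 15.1 and 34.1 CPM in sham vehicle, 12.9, 34.8, 17.8 and 30.2 in sham NMN, 26.1, 35.4, 24.9 and 51.4 in doxorubicin vehicle and 4.52, 17.6, 8.16 and 12.8 in doxorubicin NMN. The 2 doxorubicin groups did not overlap, and in each of the 4 groups the highest library read over 2 times the lowest. Against sham vehicle it did not pass (log2 fold 0.77, SE 0.40, adjusted p = 0.118).

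Accessory subunits of complex I surround the core and carry no cofactor of the chain. Of the 32 tested complex I names outside the core, 13 fell and 1 rose. Being grouped by name, they include the pseudogenes Ndufb4c and Ndufs6b, and Ndufa4 with its paralog Ndufa4l2. Ndufa4l2, a paralog of Ndufa4 known as a hypoxia-induced gene, read 14.2, 15.7, 16.9 and 17.6 CPM in sham vehicle and 10.5, 9.86, 8.72 and 9.26 in doxorubicin vehicle, with no overlap (log2 fold -0.75, SE 0.14, adjusted p = 0.000533). Ndufa4, named for complex I and since assigned to complex IV, had means of 567 ± 75.6 and 465 ± 75.9 CPM and did not pass (log2 fold -0.29, adjusted p = 0.095). It passed as lower in the first and in the second part alone (adjusted p = 0.0256 and 0.0155), with the split as a term (0.0154), with a replicate block (0.0384), under upper-quartile scaling (0.026) and in both FPKM fits (0.0432 and 0.0436). Ndufa3, a small subunit of the membrane arm, was the accessory subunit that rose, from 67.3, 71.0, 84.9 and 83.2 CPM to 92.8, 84.1, 106 and 105 (log2 fold 0.34, SE 0.13, adjusted p = 0.0382). Its groups overlapped by 1 library of doxorubicin vehicle. Its call was lost without replicates 1 or 2 of sham vehicle or 3 or 4 of doxorubicin vehicle, with adjusted p from 0.0938 to 0.112. Upper-quartile scaling (0.0898) and no filter (0.0825) lost it too. Ndufa11b was at 0 in 14 of the 16 libraries and was not tested, and the pseudogenes Ndufb4c and Ndufs6b, which can share reads with their parent genes Ndufb4 and Ndufs6, did not pass.

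Complex II, succinate dehydrogenase, has no mitochondrially encoded subunit. Sdhd, a membrane anchor that helps bind ubiquinone, fell most. It read 397, 389, 473 and 467 CPM in sham vehicle and 290.3, 271, 211 and 212 in doxorubicin vehicle, with no overlap (log2 fold -0.81, SE 0.14, adjusted p = 0.000191). The means of these groups were 393 and 280.4 CPM among first-part libraries and 470.2 and 211 among second-part libraries, a larger difference in the second part. Sdhb, the iron-sulfur subunit, read 637, 654, 754 and 757 CPM and 450.1, 402, 577 and 584 CPM in the same groups, again with no overlap (log2 fold -0.48, SE 0.12, adjusted p = 0.00438).

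Sdha, the flavoprotein that oxidises succinate, and Sdhc, the other anchor, did not pass (log2 fold -0.06 and -0.14, adjusted p = 0.712 and 0.206). The Sdha libraries of doxorubicin vehicle read 1435, 1366, 2006 and 1989 CPM against 1695, 1785, 1868 and 1720.4 in sham vehicle. The replicates of the first part lay below every sham library and those of the second part above every sham library. Sdha passed as lower within the first part alone (log2 fold -0.31, adjusted p = 0.0256). Sdhc read 399, 398, 347 and 353 CPM in doxorubicin vehicle and 394, 401, 453 and 397 in sham vehicle, and it passed as lower within the second part alone (log2 fold -0.29, adjusted p = 0.0147).

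The Sdhd promoter from RefSeq on GRCm38.p6, 250 bases before to 50 after the start site (chr9:50603800-50604099, minus strand), is shown because Sdhd is the complex II member that fell most. The capitals mark a match to TNAAGGTCA, the motif of estrogen-related receptors (ERR), which activate many genes of mitochondria. The match starts 37 bases into the transcript on the strand opposite to the gene.
Sdhd: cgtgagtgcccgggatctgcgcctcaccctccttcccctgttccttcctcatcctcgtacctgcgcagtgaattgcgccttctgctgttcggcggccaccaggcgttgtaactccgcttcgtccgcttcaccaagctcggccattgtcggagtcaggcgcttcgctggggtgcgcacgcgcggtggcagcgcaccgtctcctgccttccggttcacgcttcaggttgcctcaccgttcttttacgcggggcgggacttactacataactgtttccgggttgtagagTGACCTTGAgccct

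In complex III, the 2 core proteins Uqcrc1 and Uqcrc2 and the Rieske iron-sulfur protein Uqcrfs1 fell, and the 5 others did not pass. Uqcrc1 read 1133, 1223, 1471 and 1201 CPM in sham vehicle and 809, 690.1, 818 and 651 in doxorubicin vehicle, with no overlap (log2 fold -0.76, SE 0.13, adjusted p = 0.000182). Split by part, the sham vehicle and doxorubicin vehicle means were 1178 and 749.7 CPM for its first-part libraries, then 1336 and 735 for its second-part libraries. Uqcrc2 had means of 818 ± 76.2 and 546 ± 47.6 CPM (log2 fold -0.58, SE 0.11, adjusted p = 0.000378).

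Uqcrfs1 read 689, 801, 572 and 549.6 CPM in sham vehicle and 548, 507, 311 and 317 in doxorubicin vehicle, whose highest library lay just below the lowest of sham vehicle (log2 fold -0.64, SE 0.22, adjusted p = 0.0248). In every group its second-part libraries lay below its first-part libraries. Its first-part means were 745 CPM in sham vehicle and 527 in doxorubicin vehicle, and its second-part means 561 and 314. The call was lost without replicates 1 or 2 of sham vehicle or 3 or 4 of doxorubicin vehicle, with adjusted p from 0.0528 to 0.0817. Uqcrh, the hinge protein that binds cytochrome c1, did not pass, with means of 330.5 ± 46.4 and 322 ± 43.5 CPM.

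The Uqcrc1 promoter (chr9:108936398-108936697, plus strand, RefSeq on GRCm38.p6) holds a match to the palindromic motif of nuclear respiratory factor 1 (NRF1), a regulator of respiratory chain genes, starting 31 bases into the transcript. Its letters are those in capitals. It is shown as the promoter of the complex III member with the largest fall.
Uqcrc1: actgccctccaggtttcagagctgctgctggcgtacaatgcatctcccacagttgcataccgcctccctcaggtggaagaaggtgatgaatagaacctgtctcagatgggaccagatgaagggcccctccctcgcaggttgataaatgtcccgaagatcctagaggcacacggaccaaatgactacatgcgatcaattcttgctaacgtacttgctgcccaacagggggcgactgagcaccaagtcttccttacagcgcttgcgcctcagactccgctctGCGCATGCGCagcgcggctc

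In complex IV, 2 of 16 tested members fell and none of the other 14 passed. Cox7a1, the heart and muscle isoform of subunit 7a, had the largest fall of all members (ENSMUSG00000074218, chr7:30184144-30186078, plus strand, GRCm38). It read 216, 226, 273 and 274 CPM in sham vehicle and 94.8, 81.8, 131 and 133 in doxorubicin vehicle. The groups did not overlap (log2 fold -1.17, SE 0.19, adjusted p = 0.000153). The means of these groups were 221 and 88.3 CPM among first-part libraries and 274 and 132 among second-part libraries. Cox6a1, the isoform of subunit 6a found in most tissues, read 62.2, 60.6, 94.7 and 89.7 CPM and 55.1, 60.5, 47.5 and 47.0 CPM in the same groups (log2 fold -0.55, SE 0.17, adjusted p = 0.0156). The highest library of doxorubicin vehicle lay just below the lowest of sham vehicle, and the first part alone did not pass (log2 fold -0.09, adjusted p = 0.622). Without replicate 3 or 4 of sham vehicle the call was lost (adjusted p = 0.0616 and 0.0529).

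Among the other isoforms, Cox7a2, the counterpart of Cox7a1 in most tissues, had means of 176 ± 23.6 CPM in sham vehicle and 177 ± 37.4 in doxorubicin vehicle (log2 fold 0.01). Cox7a2l, a paralog that links complexes III and IV, had log2 fold 0.11 and Cox6a2 had 0.00. Cox4i1, the main isoform of the regulatory subunit 4, had log2 fold 0.12, and its counterpart Cox4i2, known from lung, had -0.25 at a level of only 6.27 ± 0.317 CPM in sham vehicle. Cox6b1 had log2 fold -0.08, and the testis isoform Cox6b2 had 0.41 at 0.835 ± 0.332 CPM. None of these passed. Cox6c2 read 0.0605 to 0.578 CPM and Cox7b2 0 to 0.378 CPM, and neither was tested.

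For 3 pairs of muscle and common isoforms, the log2 ratio of CPM was compared between groups by two-sided exact permutation over libraries, 6 tests in all, with 0.0286 the smallest p that 4 against 4 allows. The log2 ratio of Cox7a1 to Cox7a2 was 0.53, 0.48, 0.48 and 0.48 in sham vehicle and -0.70, -0.75, -0.60 and -0.72 in doxorubicin vehicle. All 4 doxorubicin vehicle libraries lay below all 4 of sham vehicle (difference -1.18, exact p = 0.0286, adjusted p = 0.0429). CPM are not scaled to gene length, so the ratios compare groups and do not say which isoform was the more abundant.

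The log2 ratio of Cox8b, the muscle isoform of subunit 8, to Cox8a was 1.33, 1.41, 1.28 and 1.20 in sham vehicle and 0.89, 0.87, 0.84 and 0.76 in doxorubicin vehicle. It was lower in 4 of 4 doxorubicin vehicle libraries (difference -0.47, exact p = 0.0286, adjusted p = 0.0429). Neither Cox8b nor Cox8a passed alone, with log2 folds of -0.19 for Cox8b and 0.28 for Cox8a. Cox8a passed as higher with the split as a term (adjusted p = 0.00797), with a replicate block (0.0297), in both FPKM fits (0.0351 and 0.0346), in the second part alone (0.021), and without replicate 4 of sham vehicle (0.0338) or replicate 2 of doxorubicin vehicle (0.0142). The log2 ratio of Cox6a2 to Cox6a1 did not pass, at 3.90, 4.01, 3.55 and 3.54 in sham vehicle and 4.09, 3.79, 4.56 and 4.63 in doxorubicin vehicle (difference 0.52, exact p = 0.114, adjusted p = 0.137). Its difference was -0.01 within the first part.

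**Figure D2:**
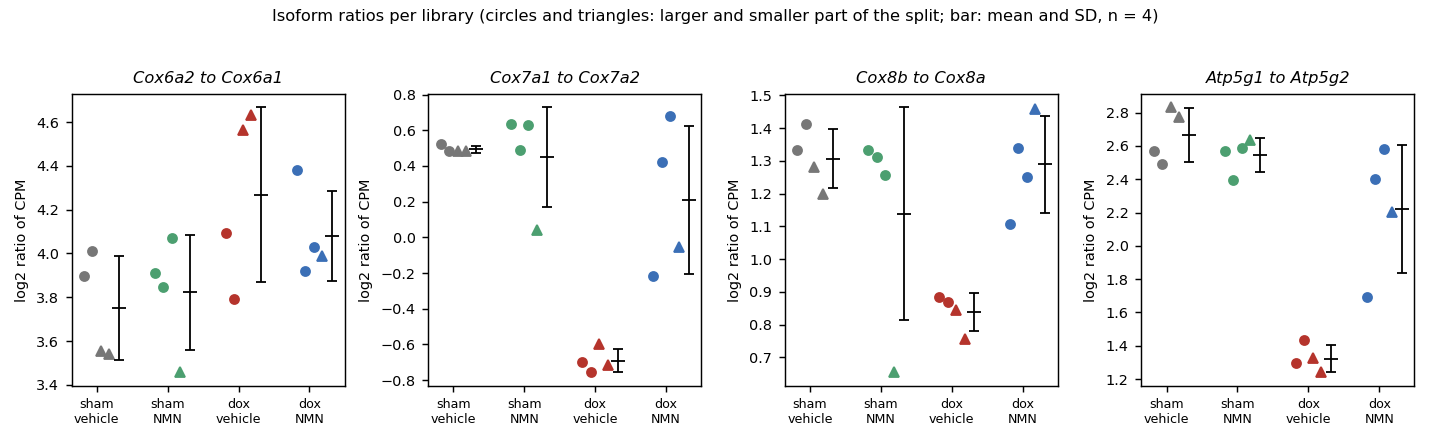
Log2 ratio of CPM between isoforms in each library (vertical axes) for the 4 groups (horizontal axes), with circles for first-part and triangles for second-part libraries and a bar for the mean and SD of 4. For Cox7a1 to Cox7a2 the doxorubicin vehicle libraries lie between -0.75 and -0.60 and those of sham vehicle between 0.48 and 0.53, and Atp5g1 to Atp5g2, shown without a test, ran from 1.24 to 1.43 against 2.49 to 2.83.

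The promoters of Cox7a1 (chr7:30183921-30184220, plus strand) and Cox6a1 (chr5:115348909-115349208, minus strand) are shown as those of the 2 complex IV members that fell (RefSeq, GRCm38.p6). The Cox6a1 window holds the NRF1 motif, in capitals, starting 162 bases before the start site. The Cox7a1 window holds none of the 4 motifs searched.
Cox7a1: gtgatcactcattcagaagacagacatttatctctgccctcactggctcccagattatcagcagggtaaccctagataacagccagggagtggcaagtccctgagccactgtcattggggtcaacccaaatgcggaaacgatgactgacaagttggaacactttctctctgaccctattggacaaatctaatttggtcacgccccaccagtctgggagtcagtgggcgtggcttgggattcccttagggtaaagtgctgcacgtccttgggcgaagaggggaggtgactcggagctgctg
Cox6a1: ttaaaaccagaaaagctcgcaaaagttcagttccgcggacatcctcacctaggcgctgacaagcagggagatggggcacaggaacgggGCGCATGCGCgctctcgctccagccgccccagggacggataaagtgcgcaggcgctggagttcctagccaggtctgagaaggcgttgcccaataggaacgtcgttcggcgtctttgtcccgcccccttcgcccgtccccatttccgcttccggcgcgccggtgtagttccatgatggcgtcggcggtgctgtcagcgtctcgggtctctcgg

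In complex V, 7 of 17 members fell and 1 rose. The alpha and beta subunits of the catalytic head and the gamma subunit of the central stalk did not pass. Their log2 folds were 0.19 for Atp5a1 (alpha), 0.07 for Atp5b (beta) and 0.08 for Atp5c1 (gamma). Atp5b, the complex V member highest in FPKM, read 4742, 5173, 5635 and 5199.6 CPM in sham vehicle and 4839, 4187, 6325 and 6379 in doxorubicin vehicle. Its second-part replicates lay above every sham library and its replicate 2 below every one. Atp5d, the delta subunit of the central stalk, fell from 495 ± 53.4 to 342 ± 42.9 CPM (log2 fold -0.53, SE 0.12, adjusted p = 0.00125). The Atp5d call was lost within the first part (log2 fold -0.26, adjusted p = 0.0985). Atp5pb, subunit b of the peripheral stalk, fell from 972 ± 98.1 to 721 ± 46.8 CPM (log2 fold -0.43, SE 0.10, adjusted p = 0.00212).

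The membrane rotor ring is built of copies of subunit c, for which Atp5g1, Atp5g2 and Atp5g3 encode the same mature protein behind different leader peptides. Atp5g1 read 718, 718, 978 and 946 CPM in sham vehicle and 415, 375, 515 and 518 in doxorubicin vehicle, with no overlap (log2 fold -0.88, SE 0.15, adjusted p = 0.000258). Atp5g3 read 836, 848, 1107 and 1038 CPM and 662, 626, 703 and 705 CPM, also with no overlap (log2 fold -0.51, SE 0.14, adjusted p = 0.00713). Atp5g2 rose, from 121, 128, 137 and 138 CPM to 169, 139, 205 and 219 CPM (log2 fold 0.48, SE 0.14, adjusted p = 0.00986).

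The Atp5g2 libraries of doxorubicin vehicle all lay above those of sham vehicle, replicate 2 by a small margin. Its call was lost within the first part (log2 fold 0.31, adjusted p = 0.101).

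The promoters of the trio are set side by side because the genes encode 1 mature protein and moved in opposite directions (RefSeq, GRCm38.p6, minus strand for each). They lie at chr11:96075582-96075881, chr15:102670998-102671297 and chr2:73911277-73911576. Capitals mark the NRF1 motif 42 bases before the Atp5g2 start site and the ERR motif 52 bases before that of Atp5g3. The Atp5g1 window holds none of the 4 motifs.
Atp5g1: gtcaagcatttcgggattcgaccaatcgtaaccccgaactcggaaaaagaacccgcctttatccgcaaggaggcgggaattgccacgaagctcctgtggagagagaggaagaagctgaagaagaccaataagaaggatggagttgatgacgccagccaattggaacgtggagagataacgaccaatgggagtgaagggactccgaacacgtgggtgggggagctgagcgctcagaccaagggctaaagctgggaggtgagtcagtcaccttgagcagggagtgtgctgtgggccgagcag
Atp5g2: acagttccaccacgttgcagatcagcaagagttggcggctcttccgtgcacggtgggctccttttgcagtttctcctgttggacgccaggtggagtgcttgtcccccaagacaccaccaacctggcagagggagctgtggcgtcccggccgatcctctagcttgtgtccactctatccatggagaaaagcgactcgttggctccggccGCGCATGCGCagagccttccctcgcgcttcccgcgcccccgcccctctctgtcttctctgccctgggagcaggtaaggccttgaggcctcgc
Atp5g3: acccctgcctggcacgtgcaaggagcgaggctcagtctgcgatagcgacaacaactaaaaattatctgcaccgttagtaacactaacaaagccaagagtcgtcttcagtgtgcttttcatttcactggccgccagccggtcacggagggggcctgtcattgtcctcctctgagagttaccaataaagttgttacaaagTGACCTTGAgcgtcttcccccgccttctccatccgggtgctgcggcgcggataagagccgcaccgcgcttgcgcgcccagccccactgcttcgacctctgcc

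A RefSeq promoter was found for 68 of the 87 members. The NRF1 motif, with the letters shown for Uqcrc1, was in 5 of the 68 (7.35%), against 1.07% of 27025 promoters of all genes and 2.18% of the 10804 of tested genes, on either strand. The ERR motif TNAAGGTCA was in 3 (4.41%, against 1.43% and 0.916%), the ETS motif CCGGAAGT, bound by GABP, in 5 (7.35%, against 4.31% and 8.55%) and the YY1 motif AANATGGCG in 10 (14.7%, against 2.76% and 5.57%). Matches are descriptions of letters, not of bound factors, and no test was made. Among the promoters shown, the NRF1 motif was in Uqcrc1 and Cox6a1, which fell, and in Atp5g2, which rose.

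**Figure D3:**
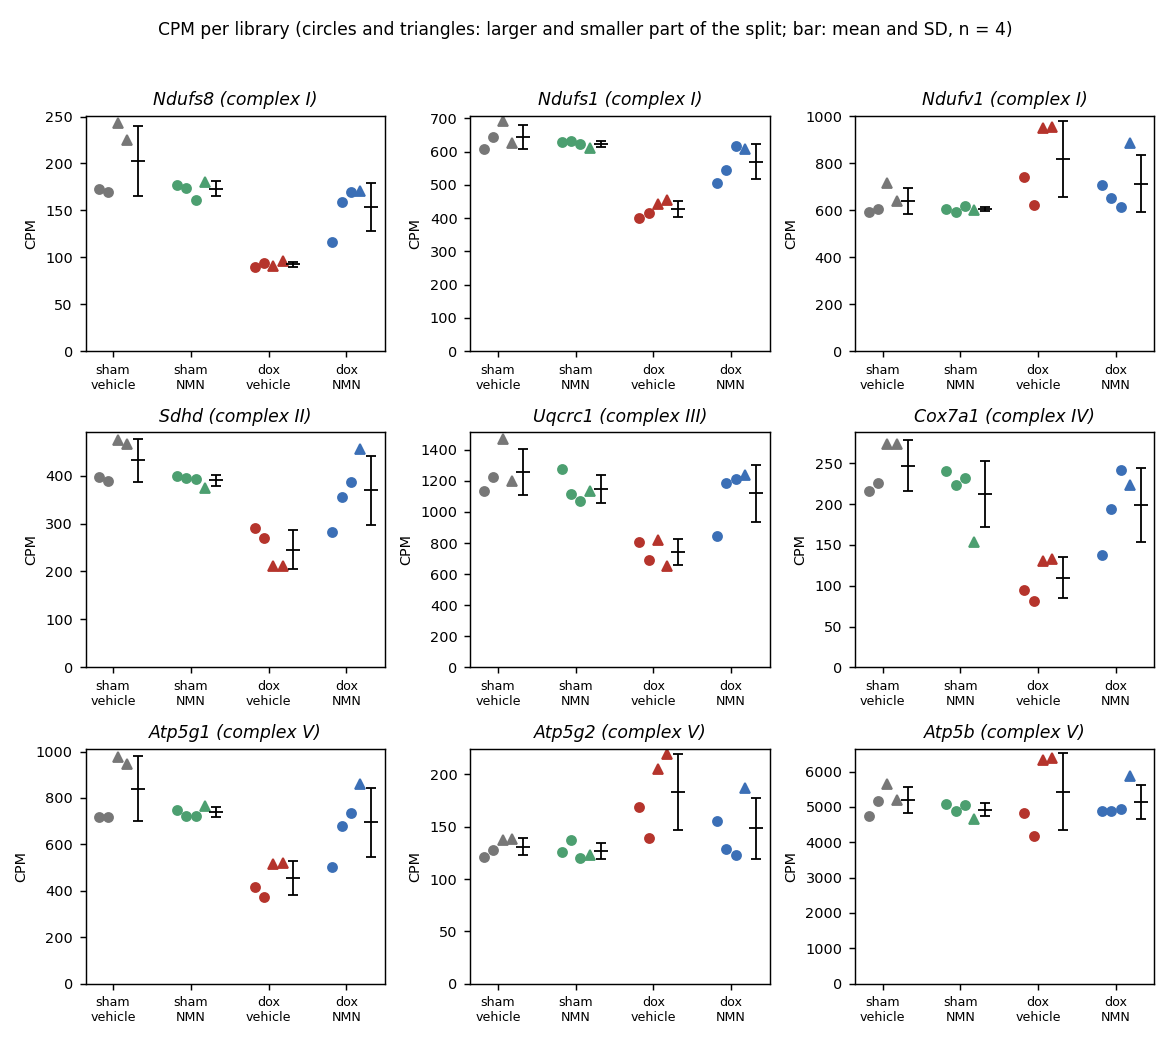
CPM in each library (vertical axes, from 0) for 9 members in the 4 groups (horizontal axes), with circles for first-part and triangles for second-part libraries and a bar for the mean and SD of 4. Doxorubicin vehicle lies below sham vehicle in Ndufs8, Ndufs1, Sdhd, Uqcrc1, Cox7a1 and Atp5g1, above it in Atp5g2, and overlaps it in Ndufv1 and Atp5b.

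In doxorubicin NMN against doxorubicin vehicle, 16 of 84 members were higher and 2 lower, and 66 did not pass. Over all genes 17.5% were higher and 18.8% lower, 36.3% in all. The members' median log2 fold was 0.15, against 0.00 over all genes. All 16 higher members were among the 32 that fell in doxorubicin vehicle against sham vehicle, but the comparisons share the doxorubicin vehicle libraries, so this overlap is no independent result. By complex, the higher members numbered 7 of 39 in I, 2 of 4 in II, 3 of 8 in III, 1 of 16 in IV and 3 of 17 in V. With all libraries 19.0% of the members were higher, near the share over all genes. Without replicate 3 of doxorubicin NMN 10 members were higher, against 1941 of 14999 genes. Without its replicate 4 there were 11, against 2488 of 14987, and without its replicate 1 there were 27, against 2621 of 14968.

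Ndufs8 read 116, 159, 169.8 and 171 CPM in doxorubicin NMN, all above doxorubicin vehicle (log2 fold 0.74, SE 0.13, adjusted p = 0.000573). Replicate 1 was the lowest there, as it also was in Ndufs1 at 505, 546, 617 and 607 CPM (log2 fold 0.41, SE 0.08, adjusted p = 0.00144). Sdhd read 282, 355, 387 and 455 CPM, with replicate 1 within the doxorubicin vehicle range (log2 fold 0.59, SE 0.14, adjusted p = 0.00365). The Sdhd difference was smaller within the first part and did not pass there (log2 fold 0.28, adjusted p = 0.108). Sdhb was higher by log2 fold 0.36 (SE 0.12, adjusted p = 0.0321). That call was lost without replicates 1 or 2 of doxorubicin vehicle or 3 or 4 of doxorubicin NMN, with adjusted p from 0.0679 to 0.0875. A fit of only the 2 groups lost it too (0.0996).

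Uqcrc1 read 844, 1184, 1209.7 and 1238 CPM in doxorubicin NMN, all above doxorubicin vehicle and with replicate 1 apart from the rest (log2 fold 0.59, SE 0.13, adjusted p = 0.00217). Uqcrc2 was higher by log2 fold 0.33 (SE 0.11, adjusted p = 0.0239), and Uqcrfs1 by 0.64 (SE 0.22, adjusted p = 0.0316). Both calls were lost on leaving out some libraries. For Uqcrc2 these were replicate 1 of doxorubicin vehicle and replicates 3 and 4 of doxorubicin NMN (adjusted p = 0.0544 to 0.0704). For Uqcrfs1 they were replicates 3 and 4 of doxorubicin vehicle and 2 and 3 of doxorubicin NMN (0.0844 to 0.102). A fit of only the 2 groups lost both calls too (0.0871 for Uqcrc2 and 0.0645 for Uqcrfs1).

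Cox7a1 was the complex IV member that passed, at 138, 194, 242 and 223 CPM in doxorubicin NMN with no overlap with doxorubicin vehicle (log2 fold 0.86, SE 0.19, adjusted p = 0.00273). Its log2 ratio to Cox7a2 was -0.21, 0.42, 0.68 and -0.05 there, above every doxorubicin vehicle library (difference 0.90, exact p = 0.0286, adjusted p = 0.0429), with replicates 2 and 3 near the sham values and 1 and 4 below them. The log2 ratio of Cox8b to Cox8a was 1.11, 1.34, 1.25 and 1.46, also above every doxorubicin vehicle library (difference 0.45, exact p = 0.0286, adjusted p = 0.0429). That of Cox6a2 to Cox6a1 did not pass (difference -0.19, exact p = 0.4). Cox6a1 had log2 fold 0.29 and did not pass (adjusted p = 0.205).

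Atp5g1 read 502, 681, 736 and 861 CPM in doxorubicin NMN, where replicate 1 lay within the doxorubicin vehicle range (log2 fold 0.61, SE 0.15, adjusted p = 0.00628). Atp5d was higher by log2 fold 0.36 (SE 0.11, adjusted p = 0.0226), a call lost within the first part (log2 fold 0.14, adjusted p = 0.36). It was also lost without replicates 3 or 4 of either group (0.05 to 0.0742) and with only the 2 groups fitted (0.0742). Atp5g2 had log2 fold -0.30 and did not pass (adjusted p = 0.102).

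The members that were lower in doxorubicin NMN than in doxorubicin vehicle were Ndufs3 (log2 fold -1.67, SE 0.41, adjusted p = 0.00511) and Ndufa3 (log2 fold -0.36, SE 0.13, adjusted p = 0.0388). Ndufa3 read 65.3, 68.5, 69.4 and 99.0 CPM in doxorubicin NMN, where replicate 4 lay inside the doxorubicin vehicle range. Its call was lost without any of 7 libraries, including replicates 1, 2 and 3 of doxorubicin NMN, with adjusted p from 0.0506 to 0.118. Upper-quartile scaling (0.0783), no filter (0.0815) and a fit of only the 2 groups (0.112) lost it too. Without replicate 4 of doxorubicin NMN 5 members were lower (2648 of 14987 genes), and without replicate 2 of doxorubicin vehicle 4 (3155 of 14938 genes).

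The interaction asks whether doxorubicin and saline mice differed by another amount with NMN than without it. It passed in 13 of 84 members, 12 with a higher and 1 with a lower value, against 9.49% higher and 8.96% lower over all genes, 18.4% in all. The members' median was 0.27, against 0.01 over all genes. The 5 with the smallest p among the higher were Ndufs8 (log2 difference 0.96, SE 0.18, adjusted p = 0.00295), Uqcrc1 (0.72, SE 0.18, adjusted p = 0.0129), Cox7a1 (1.08, SE 0.27, adjusted p = 0.0131), Ndufv2 (0.63, adjusted p = 0.0132) and Ndufs1 (0.45, adjusted p = 0.0155). The lower one was Ndufs3 (-1.92, SE 0.57, adjusted p = 0.0294), a call lost on leaving out any of 6 libraries. In the first part alone 4 members passed, all higher, against 1364 of 14967 genes, 698 of them higher, so the share of members that passed was not above the background in all and was near it for higher calls. Uqcrc1, Ndufv2, Ndufs1 and Ndufs3 did not pass there (adjusted p = 0.121, 0.0913, 0.063 and 0.0736). Without replicate 1 of doxorubicin NMN 23 members were higher, against 1623 of 14968 genes.

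In doxorubicin NMN against sham NMN no member passed, and over all genes 0% passed. By edgeR 1 member, Ndufs3, and 1223 genes had an unadjusted p under 0.05, and DESeq2 called 0 members and 21 genes. The smallest p among members were those of Ndufs3 (log2 fold -1.15, adjusted p = 0.51), Ndufb2, an accessory subunit of complex I (-0.56, adjusted p = 0.61), and Cox8b (0.27, adjusted p = 0.628). The median log2 fold of the members was 0.07. Side by side, log2 folds of doxorubicin without and with NMN were -1.13 and -0.17 in Ndufs8, -0.81 and -0.08 in Sdhd, and -0.76 and -0.04 in Uqcrc1. They were -1.17 and -0.09 in Cox7a1, and -0.88 and -0.09 in Atp5g1. Each of these genes had the largest fall of its complex without NMN, which favours a smaller fold in the other comparison. Over the 84 members, Spearman's rho between the folds without and with NMN was 0.73 and Pearson's r was 0.26. This is a description over genes measured in the same libraries, with no library shared between the comparisons.

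In sham NMN against sham vehicle no member passed, and over all genes 0% passed. No member and 342 genes had an unadjusted p under 0.05 by edgeR, and DESeq2 called 0 of each. Log2 folds were small and mostly below 0, in 78 of 84 members with a median of -0.15, against -0.01 over all genes. The split is uneven here, with replicates 3 and 4 of sham vehicle but only replicate 4 of sham NMN in the second part. Per library, the members' median log2 difference from the sham vehicle mean was -0.16 and -0.12 in first-part sham vehicle. In first-part sham NMN it was -0.08, -0.12 and -0.13. Second-part values were 0.15 and 0.13 in sham vehicle and -0.23 in sham NMN, and the part of the split was not tested. The smallest p were those of Ndufs8 (-0.23, SE 0.13), Ndufv3, an accessory subunit of the NADH module (-0.25, SE 0.15), and Ndufb11, of the membrane arm (-0.22, SE 0.14).

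**Figure D4:**
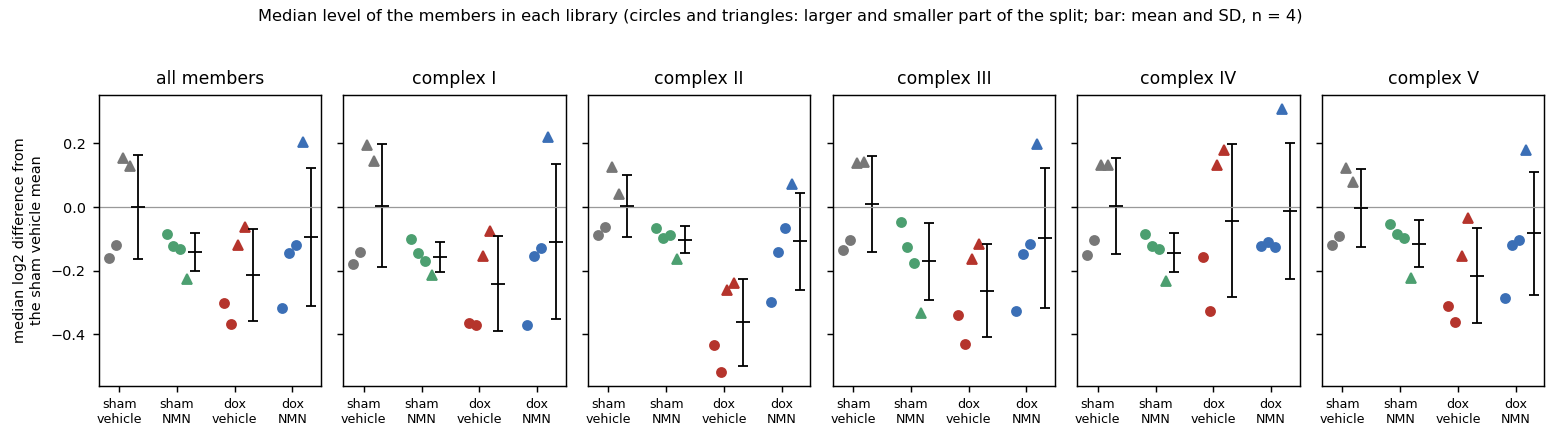
Median over members of the log2 difference from the sham vehicle mean in each library (vertical axis), for all tested members and for complexes I to V, in the 4 groups (horizontal axes), with circles for first-part and triangles for second-part libraries and a bar for the mean and SD of 4. Over all members sham vehicle spans -0.16 to 0.15, sham NMN -0.23 to -0.08, doxorubicin vehicle -0.37 to -0.06 and doxorubicin NMN -0.32 to 0.20.

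The library medians of the members followed the split within 3 of the 4 groups. In sham vehicle, doxorubicin vehicle and doxorubicin NMN every second-part library had a higher median than every first-part library, while replicate 4 of sham NMN had the lowest of its group at -0.23. For complex IV the doxorubicin vehicle medians ran from -0.33 to 0.18, on both sides of the sham vehicle mean. Replicate 1 of doxorubicin NMN had the lowest median of its group at -0.32 and replicate 4 the highest at 0.20.

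**Figure D5:**
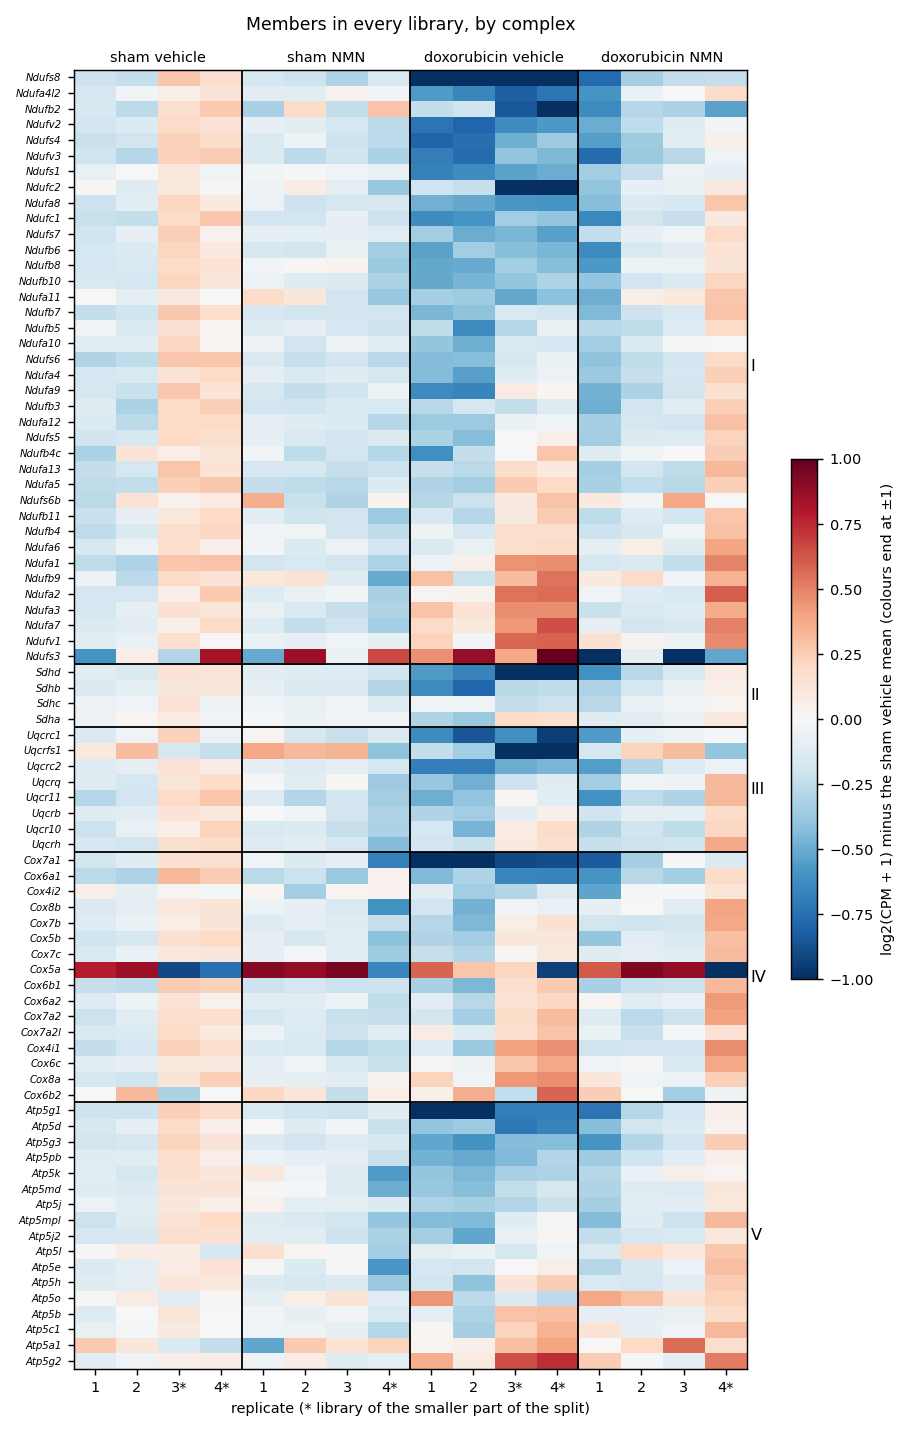
Log2(CPM + 1) minus the sham vehicle mean for 83 of the 84 tested members (rows, by complex and by log2 fold) in the 16 libraries (columns, by group, an asterisk marking the second part). Blue is lower and red higher, with colours ending at ±1, and the doxorubicin vehicle columns are bluest in the upper rows of each complex while Cox5a follows the split.

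Genes around the complexes were counted for lists chosen, like the members, with earlier results known. Among 6 other subunits and partners outside the naming rule, 5 fell and 1 rose in doxorubicin vehicle against sham vehicle. Over all genes 23.9% fell and 24.8% rose. Cytochrome c (Cycs) fell from 635 ± 72.6 to 317 ± 52.9 CPM (log2 fold -0.999, SE 0.15, adjusted p = 9.67e-05), and Cyc1, the cytochrome c1 subunit of complex III, from 701 ± 46.9 to 413 ± 26.7 (log2 fold -0.76, SE 0.12, adjusted p = 9.15e-05). Ndufab1, the mitochondrial acyl carrier protein, fell (log2 fold -0.92, SE 0.23, adjusted p = 0.00379). Atpif1, which inhibits the hydrolysis of ATP by complex V, was the one that rose, from 6.15 ± 0.401 to 9.87 ± 1.16 CPM (log2 fold 0.68, SE 0.19, adjusted p = 0.0074), a call lost within the first part (adjusted p = 0.0611).

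Assembly factors fell in 11 of 16 for complex I, 3 of 3 for complex II, 4 of 6 for complex III, 11 of 19 for complex IV and 3 of 3 for complex V, and 1 rose, for complex IV, against 23.9% of all genes that fell and 24.8% that rose. Median log2 folds of these lists were -0.49, -0.58, -0.74, -0.51 and -0.76. Ndufaf1 and Ndufaf5, for complex I, fell by 0.97 and 1.06 on the log2 scale, Sdhaf4 by 1.38, Bcs1l, which inserts Uqcrfs1 into complex III, by 1.51, and Uqcc1 by 1.24. In complex IV assembly Cmc2 fell by 1.95 and Coa7 by 1.04, while Surf1 rose (log2 fold 0.39, adjusted p = 0.0373). The Surf1 call was lost without any of 5 libraries and within the first part (0.06 to 0.169). Upper-quartile scaling, no filter and a fit of only the 2 groups lost it too (0.0728 to 0.0802). Atpaf2 and Tmem70, for complex V, fell by 0.83 and 0.76. Whether the lists differ from the subunits was not tested.

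For the next lists too, 23.9% of all genes fell and 24.8% rose, 48.7% in all. Of 13 genes of ubiquinone synthesis 6 fell and 1 rose, with Coq5 at log2 fold -0.79, Pdss2 at -0.98 and Coq8b, which rose, at 1.09. Of 12 tested mitochondrially encoded subunits 4 fell, among them mt-Nd2 (log2 fold -0.53, SE 0.10, adjusted p = 0.000657) and mt-Nd1 (log2 fold -0.43, SE 0.12, adjusted p = 0.00899), whose call was lost within the first part (adjusted p = 0.183). Their median log2 fold was -0.25. Of 12 regulators 7 fell and 2 rose. Esrrg, a receptor that binds the ERR motif, fell (log2 fold -0.999, SE 0.14, adjusted p = 5.51e-05), and Perm1, a muscle gene known to act with such receptors, fell (log2 fold -1.50, SE 0.22, adjusted p = 6.78e-05).

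Ppargc1a, the coactivator PGC-1alpha, read 137, 162, 135 and 126 CPM in sham vehicle and 127, 125, 49.4 and 57.5 in doxorubicin vehicle (log2 fold -0.64, SE 0.23, adjusted p = 0.0306), and Esrra read 134, 140.1, 153 and 124 and 121, 124, 79.4 and 73.4 (log2 fold -0.47, SE 0.15, adjusted p = 0.0136). In both genes the low libraries were the second-part replicates 3 and 4, and within the first part neither passed (log2 fold -0.25 and -0.16, adjusted p = 0.0988 and 0.221). The Ppargc1a call was also lost without replicates 1 or 2 of sham vehicle (adjusted p = 0.0506 and 0.0766), without replicates 3 or 4 of doxorubicin vehicle (0.0858 and 0.099) and with only the 2 groups fitted (0.105). The Esrra call was also lost without replicate 3 of doxorubicin vehicle (0.0511) and with only the 2 groups fitted (0.0607). Tfam, which packs and transcribes mitochondrial DNA, fell (log2 fold -0.58, SE 0.11, adjusted p = 0.00043). Nrf1 rose (log2 fold 0.56, SE 0.13, adjusted p = 0.00201), with the call lost within the first part (adjusted p = 0.155), and Pprc1, a relative of PGC-1alpha, rose (log2 fold 0.42, SE 0.14, adjusted p = 0.0178). The Pprc1 call was lost within the first part (0.0783) and on leaving out 2 of the libraries.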

How the data were processed

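Libraries were made with an unstranded kit from heart RNA. HISAT2 2.1.0, HTSeq 0.6.0 and the build GRCm38 are named per the submitters' processing notes. The annotation release, strand setting and filters were not given in the sources used here. Raw counts for 30884 genes and 16 libraries were deposited by the authors. The FPKM values the authors deposited equal counts per length and library total (largest relative deviation 1.3e-13).

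The counts entered 1 quasi-likelihood fit of all 4 groups in edgeR 4.0.16 under R 4.3.3, with the default expression filter, TMM scaling, a prior count of 2, a common dispersion of 0.0377 and Benjamini-Hochberg adjustment over 14716 genes. CPM is each count relative to the library total after TMM scaling. SE is that of the log2 fold, and SD is over 4 libraries. With 13.9 M to 16.4 M counts, 3 counts stood for 0.183 to 0.215 CPM. Chi-square per gene between replicates was 3.88 to 72.9, so none were counted as 1 library. Isoform ratios were tested by exact permutation. The fit was tested on simulated data. Promoters are from the RefSeq table on GRCm38.p6 and gene positions from GENCODE M21, the same as in the tables for 87 of 87 members.

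Alternatives were RLE and upper-quartile scaling, other filters, DESeq2 1.42.0, limma 3.58.1 on counts (voom) and on log2(FPKM + 1) or log2(FPKM + 0.1), a fit of 2 groups, a replicate block, the split, stricter thresholds and each library left out.

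The members and lists were chosen with earlier results of these data known. Named were, per complex, the 4 called members with the smallest p in each direction for doxorubicin vehicle against sham vehicle, 2 for doxorubicin NMN against doxorubicin vehicle, up to 5 in other comparisons or 3 where none passed, the highest FPKM per complex, untested members, the isoforms and Sdh genes, 6 genes outside and 2 per list and direction. Atp5a1, Atp5c1, Atp5o, Cox5a, Ndufa8, Ndufb4c, Ndufc2, Ndufs6b, Ndufs7 and Uqcrh were named after their values were seen. Values of 1 complex I member are not reported here, though it is in the counts and medians.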

Additional observations from a re-analysis of the deposited data

Results flagged for a closer look

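A library far from the other 3 of its group was marked in 11 of 172 groups examined, and chance marks about 1 in 20. In doxorubicin NMN, replicate 4 stood high in Ndufa3 (99.0 CPM), Atp5b (5867 CPM), Cox4i1 (832 CPM) and Cox6b1 (451 CPM), and replicate 1 stood low in Uqcrc1 (844 CPM). In sham NMN, replicate 4 stood apart in Uqcrfs1 (488 CPM), in Cox8a (76.0 CPM) and in the log2 ratio of Cox8b to Cox8a (0.65), and replicate 2 in Cox4i2 (4.73 CPM). In sham vehicle, replicate 3 stood high in Sdhc (453 CPM) and replicate 1 in the log2 ratio of Cox7a1 to Cox7a2 (0.53), where the other 3 agree closely. Both replicates 4 belong to the second part of the split, and the part of the split in these values was not tested.

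The doxorubicin effect differed between NMN and vehicle mice, by the interaction term of the edgeR fit, in 13 members. The log2 differences were 0.96 in Ndufs8, 0.70 in Ndufa4l2, 0.63 in Ndufv2, 0.61 in Ndufa8, 0.53 in Ndufs7, 0.45 in Ndufs1 and -1.92 in Ndufs3 of complex I. In complex II they were 0.73 in Sdhd and 0.52 in Sdhb, in complex III 0.72 in Uqcrc1 and 0.46 in Uqcrc2, in complex IV 1.08 in Cox7a1 and in complex V 0.79 in Atp5g1.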

How the results depend on the processing

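No called result reversed under any alternative. For doxorubicin vehicle against sham vehicle, 3 members rose, but 1 under upper-quartile scaling, without a filter and at an adjusted p under 0.01, 5 with FPKM and with the split as a term, 11 in the second part alone, 0 with a fold of at least 1.5, and 1 to 6 leaving out a library (1 without sham vehicle replicates 1 or 2 or doxorubicin vehicle replicates 3 or 4, 5 without sham vehicle replicate 4, 6 without doxorubicin vehicle replicate 2). The 32 that fell (3523 of 14716 genes) were 19 at 0.01, 13 at 1.5-fold and 23 in the first part (2080 of 14967). Leaving out a library gave 24 to 34. The 24 was reached without sham vehicle replicate 3 (3210 of 14964 genes) and also without its replicate 4 (3123 of 14941), both of the second part. The 34 was reached without doxorubicin NMN replicate 4 (3578 of 14987). For doxorubicin NMN against doxorubicin vehicle, 16 higher became 25 under upper-quartile scaling, 10 with 2 groups fitted, 24 with the split as a term, 42 in the second part, 9 at 0.01, 7 at 1.5-fold and 10 to 27 leaving out a library. The 2 lower (2765 of 14716 genes) became 1 under upper-quartile scaling (2272 of 14716), no filter (2411 of 30376) and 2 groups (1719 of 13956). They were also 1 at 0.01 and 1.5-fold, and 1 to 5 leaving out a library. At the stricter thresholds genes outside the members were not counted. In the second part alone each NMN group is a single library assumed to vary like the others. There 6 members were lower in sham NMN than in sham vehicle (12 of 15606 genes) and 44 higher in doxorubicin NMN than in sham NMN (897 of 15606 genes), the latter a difference between 2 libraries from which nothing about the conditions is read. These member counts were 0 in all other settings. The 12 higher by interaction became 4 and 63 within the parts, 1 at 0.01 and 8 to 23 leaving out a library, and the 1 lower became 0, 2, 0 and 0 to 1. The cause was not tested. The interaction was not fitted with only 2 groups.

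Leaving out a library, isoform differences ran from -1.22 to -1.16 (Cox7a1 to Cox7a2), -0.50 to -0.43 (Cox8b to Cox8a) and 0.40 to 0.68 (Cox6a2 to Cox6a1, exact p = 0.0286 without doxorubicin vehicle replicate 2) for doxorubicin vehicle against sham vehicle, and 0.74 to 1.04, 0.39 to 0.51 and -0.35 to -0.07 for doxorubicin NMN against doxorubicin vehicle, where leaving out any doxorubicin vehicle library for Cox7a1 to Cox7a2, or its replicate 4 for Cox8b to Cox8a, gave exact p = 0.0571. Within the first part they were -1.23, -0.50, 1.02 and 0.36 for the ratios that had passed, at exact p of 0.333, 0.333, 0.2 and 0.1, where 2 against 2 libraries cannot go below 0.333. Cox6a2 to Cox6a1, which had not passed, changed sign there, at -0.01 and 0.17.

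Replicates with 1 number deviated together little (r from -0.117 to 0.405, median 0.0255, over 24 pairs), and 5 of 16 libraries correlated best with their own number, so the numbers were not taken as pairs. With a replicate block 6 members rose and 32 fell in doxorubicin vehicle, against 3630 and 3556 of 14716 genes. In doxorubicin NMN 17 were higher and 2 lower (2626 and 2721 genes), and 13 and 1 passed for the interaction (1346 and 1268). Paired isoform differences of -1.18, -0.47, 0.90 and 0.45 had the smallest p that 4 pairs allow, 0.125.

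At this depth, members near 3 counts per library (Ndufa11b, Cox6c2, Cox7b2) give no fold. Differences of about 0.3 on the log2 scale are near the limit of what 4 libraries showed here, so not passing does not show equal levels.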

Other observations

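Cox5a, a subunit of cytochrome c oxidase, read 219, 230.3, 67.2 and 75.2 CPM in sham vehicle, 240.0, 235, 245 and 80.3 in sham NMN, 189, 153, 147 and 65.7 in doxorubicin vehicle and 194, 242, 235 and 62.8 in doxorubicin NMN. The second-part libraries were the low ones in every group, by a mean of -1.46 on the log2 scale, and replicate 3 of doxorubicin vehicle lay near the first part. Ndufc2, an accessory subunit of the membrane arm, read 62.4, 60.9, 34.2 and 33.4 CPM in doxorubicin vehicle, lowest in replicates 3 and 4, and 72.0, 65.7, 77.1 and 72.0 in sham vehicle.

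Across the 84 tested members, the log2 fold of doxorubicin vehicle against sham vehicle had a Pearson r of -0.14 with gene length and -0.10 with the log2 FPKM of sham vehicle. Both are descriptions across genes that share the same libraries. Of the 9 names left out for the ending -ps, Cox5b-ps, Ndufa12-ps and Ndufb1-ps had mean counts of 657, 552 and 648 per library, and were not analysed further.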
